A study of Homo sapiens with 9 samples.

Results

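The genes described here are 36 genes of homologous recombination and of the Fanconi anemia pathway, chosen as a list of gene names, with earlier results of these data known. They were found by matching Ensembl gene IDs to symbols in the deposited count table, and all 36 were found among its 70116 IDs. They fall into 7 groups by the role of their proteins: the BRCA complex, the strand invasion genes, end resection and dissolution, the Fanconi core complex with its ubiquitin step, the FANCI and FANCD2 pair, nucleases and resolvases, and checkpoint. The study sequenced messenger RNA of U2OS, an established human osteosarcoma cell line, in 9 libraries. There were 3 libraries from wild-type cells on vehicle, 3 from wild-type cells kept for 4 days on palbociclib and 3 from PERK knockout cells kept for the same time on the drug. The labels number the libraries of each group as sets 1, 2 and 3, and a library is named here by its group and set. Palbociclib inhibits the cyclin-dependent kinases CDK4 and CDK6, which release E2F transcription factors at the entry into S phase. PERK, encoded by EIF2AK3, is the kinase of the unfolded protein response that phosphorylates eIF2alpha.

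Homologous recombination repairs a broken DNA molecule, or a broken replication fork, by copying an intact sister molecule: the broken ends are resected, the single strand invades the intact molecule with the help of the BRCA proteins, and the joined molecules are later dissolved or cut apart. The Fanconi anemia pathway removes crosslinks between DNA strands, for which a core complex of proteins ubiquitinates FANCI and FANCD2 so that nucleases can unhook the crosslink. Both pathways act mainly in S and G2 phase, many of their genes are known E2F targets, and U2OS cells maintain their telomeres by a pathway that uses recombination.

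All knockout libraries also carried the drug, so no libraries of knockout cells on vehicle were analysed here and the knockout cannot be compared with wild type apart from the drug. The drug's dose is not given in the sources used here, and neither is whether the knockout line is 1 clone or whether the sets were separate cultures. The p-values then speak for the scatter among these libraries alone, and that scatter may be technical. EIF2AK3 stood at 31.7, 34.8 and 32.8 counts-per-million (CPM) on vehicle, at 35.7, 36.8 and 31.8 CPM in wild-type cells on palbociclib and at 19.7, 18.7 and 17.8 CPM in knockout cells. In knockout cells its transcript was at 53.9% of the wild-type level (a log2 difference of -0.89 with an SE of 0.068, edgeR adjusted p = 5.98e-09), and PERK protein was not measured. Of the lineage markers, COL1A1, SPARC, VIM, FN1 and CDH2 were at 186 CPM or more on vehicle, while the bone markers SP7, IBSP and BGLAP were at or near 0. COL1A2, ALPL and SPP1 of the bone list stood at 1.42, 2.78 and 5.15 CPM on vehicle and RUNX2 at 36.2 CPM. The epithelial keratins KRT8 and KRT18 stood at 420 and 225 CPM. The rest of the epithelial list, CLDN4, EPCAM, CDH1, ESRP1 and KRT19, was at 23.0 CPM or less on vehicle. Blood cell markers summed to at most 0.895 CPM in any library and endothelial markers to at most 5.84 CPM, though PTPRC of the first list (0.258 to 0.501 CPM) and VWF of the second (1.80 to 3.15 CPM) rose with palbociclib. Library totals ran from 33674039 to 42577874 counts, of which the 36 genes took 0.155 to 0.229%. Every one of the 36 passed the filter on low counts, and the lowest count of any of them in a library was 103.

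Promoters were read over a window of 250 bases before and 50 bases after the RefSeq start. Stretches of 60 bases are printed for genes of the set with an E2F-type motif that begins before the start. They are also printed for 3 genes that did not fall with palbociclib and hold no such motif in the window. Matches that begin after the start, in EXO1, GEN1 and XRCC2, are not printed. Of the matches in FANCC, only the one nearer the start is printed. The motif was searched as TTTCCCGC, TTTGGCGC, TTTCGCGC and TTTGCCGC on both strands, and capitals mark the match, written in the gene's 5′ to 3′ direction (RefSeq, build GRCh38.p14). In order, they lie at chr3:10026387-10026446 (plus strand), chr3:133661932-133661991 (minus), chr9:83980747-83980806 (plus), chr9:95317722-95317781 (minus), chr16:89816786-89816845 (minus), chr3:142578724-142578783 (minus), chr17:35119749-35119808 (minus) and chr11:22625814-22625873 (minus).
FANCD2: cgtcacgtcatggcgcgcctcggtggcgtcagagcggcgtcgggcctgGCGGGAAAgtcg
TOPBP1: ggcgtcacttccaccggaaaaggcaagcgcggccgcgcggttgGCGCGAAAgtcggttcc
RMI1: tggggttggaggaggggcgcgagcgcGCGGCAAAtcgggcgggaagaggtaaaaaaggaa
FANCC: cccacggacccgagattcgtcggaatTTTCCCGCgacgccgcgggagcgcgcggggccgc
FANCA: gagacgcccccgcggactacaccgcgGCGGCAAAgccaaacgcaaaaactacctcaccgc
ATR: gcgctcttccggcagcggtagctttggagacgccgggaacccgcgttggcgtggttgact
RAD51D: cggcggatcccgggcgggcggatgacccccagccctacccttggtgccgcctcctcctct
FANCF: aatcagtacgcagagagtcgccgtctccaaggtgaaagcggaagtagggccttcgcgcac

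A promoter window was at hand for 33 of the 36 genes, all but FANCI, RAD54B and RMI2. These 33 genes had 45 windows, and a gene counted as matched if any of its windows held the motif. The E2F-type motif was in 8 of these 33 (24.2%) and in 6.04% of the 12374 tested genes with a window. Counted by window and not by gene, it was in 3.31% of all 35116 windows. The 8 were EXO1, FANCA, FANCC, FANCD2, GEN1, RMI1, TOPBP1 and XRCC2, and all 8 fell with palbociclib, as did 22 other genes of the set with a window and no match. The match in FANCD2 began 2 bases before the start and that in TOPBP1 7 bases before it. CCAAT, the letters bound by the factor NF-Y, was in 16 of the 33 genes (48.5%, against 42.0% of tested genes). TTTGAA, a core of the cell cycle homology region, was in 3 (9.09% against 14.4%). TGATGNAA, letters of the ATF4 site, a factor translated when PERK is active, was in 1, RBBP8 (3.03% against 3.04%). Each motif was counted on its own, whether or not its letters overlapped another match. A match is a description of letters, and a window without one says nothing about the factor.

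Per length of transcript, the set spanned a wide range on vehicle. In transcripts-per-million (TPM, counts over the merged exon length, scaled to the same total in each library), UBE2T, the ubiquitin-conjugating enzyme of the Fanconi pathway, was highest at 161 ± 11 TPM (SD, n = 3). FANCG at 117 ± 1.0, TOPBP1 at 109 ± 5.8, FANCI at 107 ± 5.3 and RAD51AP1 at 105 ± 3.2 TPM followed, and the last 3 of these did not differ from each other beyond their spread. BRCA1 stood 12th of 36 at 49.2 ± 3.0 TPM, next to BRIP1 at 49.0 ± 3.5. RAD51D at 6.84 ± 0.34 and RAD54B at 3.18 ± 0.42 TPM were the lowest. The place of RAD51D depends on its merged exon length of 11304 bases: in CPM it stood at 20.2, above FANCF at 10.6 and FANCB at 10.4. RAD54B was also low in CPM, at 4.40, but shares 59.1% of its exon bases with another gene on the same strand, so its level is uncertain. Changes between groups, given next, compare each gene with itself in CPM.

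In wild-type cells, 4 days of palbociclib lowered most of these genes. Of 36, 32 fell, 1 rose and 3 were not called (edgeR adjusted p under 0.05), while 22.3% of the 19408 genes tested were called lower, 21.3% higher and 43.7% in either direction. The median log2 fold change of the set was -0.47, and that of all tested genes -0.02. The libraries of the groups did not overlap for 32 of the 36 genes, against 51.6% of all tested genes. The largest falls were those of RAD51AP1, FANCD2, UBE2T, BRIP1, BLM and FANCA, which ended at 58.2 to 66.2% of vehicle. ATR rose, and RAD51D, RMI2 and FANCF were not called. In bulk RNA, fewer cells in the cell cycle phases that express these genes and less RNA per cell cannot be told apart.

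The fall came with a fall of proliferation markers. All 13 S phase markers tested fell (median -0.77), as did all 11 markers of G2 and mitosis (median -0.55). Summed over genes, the 36 stood at 68.5 to 74.6% of the vehicle mean in the 3 wild-type libraries on palbociclib, S phase markers at 57.6 to 64.6% and markers of G2 and mitosis at 59.4 to 70.0%. Several lineage markers moved as well. In wild-type cells on palbociclib the epithelial list summed to 128 to 136% of the vehicle mean, the mesenchymal list to 148 to 160% and the osteoblast list to 148 to 176%. These sums are led by abundant genes, KRT8 and KRT18 in the epithelial list and COL1A1 and SPARC in the osteoblast list. Of the genes tested, 4 of 6 epithelial, 3 of 3 mesenchymal and 4 of 6 osteoblast genes were called higher (21.3% of all tested genes). EPCAM (-0.32), CLDN4 (-0.12), RUNX2 (0.10) and SPP1 (1.11) were not called. The part of these markers in the fall of the recombination genes was not tested. Set 3 gave the lowest wild-type palbociclib library for 24 of the 36 genes, against 36.4% of all tested genes, and the lowest knockout library likewise for 24, against 34.6%. In both drug groups it was also the lowest in summed S phase and in summed G2 and mitosis markers. On vehicle the lowest library was that of set 1 for 22 of the 36, against 35.9%.

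**Figure D1:**
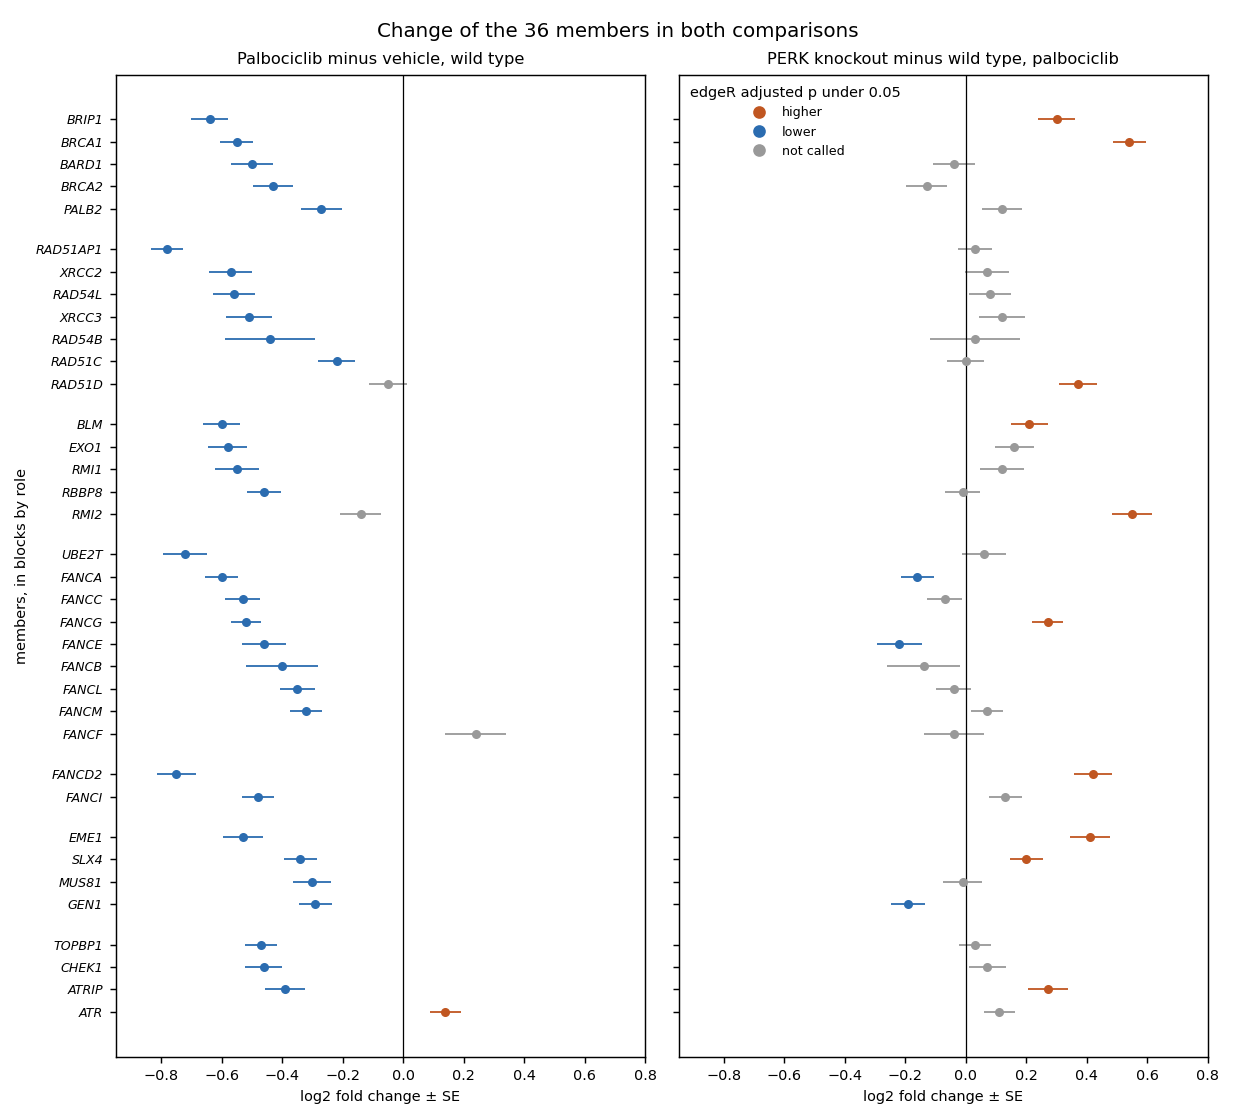
Log2 fold changes with their SE (x axis) of the 36 genes in blocks by role (y axis), for palbociclib against vehicle in wild-type cells (left) and PERK knockout against wild-type cells on palbociclib (right), with 3 libraries a group. On the left 32 genes lie below 0 and are called lower, and on the right 10 are called higher, 3 lower and 23 neither.

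Among cells on palbociclib, fewer of these genes differed between knockout and wild-type cells, and in both directions. In knockout against wild-type cells, 10 of 36 were higher, 3 lower and 23 not called, where 14.9% of all tested genes were called higher, 13.0% lower and 27.9% either way. The median log2 fold change was 0.07, against 0.01 for all tested genes, and it was 0.021 without wild-type palbociclib set 3. Groups did not overlap for 15 of the 36, against 41.3% of all tested genes. The genes higher in knockout cells were RMI2, BRCA1, FANCD2, EME1, RAD51D, BRIP1, FANCG, ATRIP, BLM and SLX4, at 115 to 146% of wild type. Those lower were FANCE, GEN1 and FANCA, at 85.8 to 89.7%. All 3 of these lower calls were lost when set 2 of the wild-type palbociclib group, or set 3 of the knockout group, was left out. This comparison and the one with vehicle share the wild-type palbociclib libraries, so a low or high value there enters both with opposite sign.

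Knockout cells on palbociclib can also be set against wild-type cells on vehicle, 2 groups that differ in both genotype and drug. Of the 36, 28 were lower, 3 higher and 5 not called, against 26.0% of all tested genes lower, 25.7% higher and 51.7% either way. The median was -0.39, and -0.01 over all tested genes. The 3 higher were RMI2, RAD51D and ATR, and the 5 not called were BRCA1, PALB2, EME1, ATRIP and FANCF. Groups did not overlap for 32 of 36, against 58.5% of all tested genes. Read over the 3 comparisons, 20 genes were lower with the drug, not called between genotypes and lower again in knockout cells against vehicle. BLM, BRIP1, FANCD2, FANCG and SLX4 were lower with the drug and higher in knockout than in wild-type cells, yet still below vehicle, and FANCA, FANCE and GEN1 were lower in each comparison.

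The BRCA complex prepares resected DNA for strand invasion: BRCA1 and BARD1 form a ubiquitin ligase, PALB2 bridges BRCA1 to BRCA2, and BRIP1 is a helicase bound to BRCA1. All 5 fell with palbociclib (median log2 fold change -0.50). BRCA1 (chr17:43044295-43170245, GRCh38) stood at 120, 121 and 112 CPM on vehicle, at 82.8, 83.9 and 74.7 CPM in wild-type cells on palbociclib and at 120, 121 and 111 CPM in knockout cells. Every wild-type library on the drug lay below every library of the other groups, while vehicle and knockout libraries overlapped. BRCA1 changed by -0.55 ± 0.055 with the drug (edgeR adjusted p = 1.27e-07) and was higher by 0.54 ± 0.055 in knockout cells (edgeR adjusted p = 3.01e-07). Between knockout cells and vehicle the difference was -0.01 with a 95% interval of -0.12 to 0.10, which leaves room for a change of that size in either direction.

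BRIP1 (chr17:61681266-61863521) read 95.6, 104 and 107 CPM on vehicle, 66.2, 71.0 and 60.4 CPM in wild-type cells on the drug and 83.5, 83.6 and 76.6 CPM in knockout cells. Its 3 groups did not overlap, with knockout cells in between. The drug lowered it by 0.64 ± 0.061 on the log2 scale (edgeR adjusted p = 7.79e-08), and knockout cells were higher by 0.30 ± 0.061 (edgeR adjusted p = 0.000853). BARD1, BRCA2 and PALB2, partners of BRCA1 in the same complex, had fallen with the drug to 70.9, 74.3 and 83.2% of vehicle, but were not called between genotypes. Their knockout log2 fold changes were -0.04, -0.13 and 0.12, and with the set number as a block BRCA2 was called lower in knockout cells (edgeR adjusted p = 0.0471), as it was without wild-type palbociclib set 3 (0.0248). PALB2 was called lower than vehicle in knockout cells with that block (-0.15, edgeR adjusted p = 0.0449), with library totals in place of TMM scaling (0.0309) and without vehicle set 1 (0.0292).

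Among the strand invasion genes, the paralogs RAD51C, RAD51D, XRCC2 and XRCC3 help filaments form on single-stranded DNA, RAD51AP1 and RAD54L stimulate strand invasion, and RAD54B is a relative of RAD54L. Of these 7 genes, 6 fell with palbociclib (median -0.51). RAD51AP1 (chr12:4538798-4560048) stood at 69.0, 69.5 and 72.3 CPM on vehicle, at 41.7, 41.7 and 39.3 CPM in wild-type cells on the drug and at 43.3, 42.9 and 38.9 CPM in knockout cells. Both drug groups lay far below vehicle and overlapped each other. With -0.78 ± 0.054 (edgeR adjusted p = 1e-09) its fall was the largest estimate of the 36, beside that of FANCD2, and the genotypes differed by 0.03 with an interval of -0.09 to 0.14.

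RAD51D (chr17:35092208-35121522) went another way. It read 19.9, 20.7 and 19.9 CPM on vehicle, 19.3, 19.2 and 20.1 CPM in wild-type cells on palbociclib and 25.8, 25.7 and 24.1 CPM in knockout cells. The wild-type groups overlapped, and each knockout library was above all 6 of them. Palbociclib changed it by -0.05 (interval -0.18 to 0.08), and knockout cells were higher than wild-type cells by 0.37 ± 0.063 (edgeR adjusted p = 0.000163). Its exons share 8.01% of their bases with the read-through gene RAD51L3-RFFL on the same strand, so a part of these reads could be divided between them.

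XRCC2, RAD54L and XRCC3 fell to 67.2, 68.0 and 70.5% of vehicle and RAD51C to 85.8%, and none of these 4 was called between genotypes. RAD51C lost its drug call without wild-type palbociclib set 3 (-0.14, edgeR adjusted p = 0.0817). RAD54B, the lowest of the set in counts, fell by 0.44 ± 0.15 on the log2 scale (edgeR adjusted p = 0.0223). That call was lost without vehicle set 2 (0.0866), vehicle set 3 (0.07) or wild-type palbociclib set 3 (0.141). Against vehicle, its call in knockout cells was lost without vehicle set 2 or 3 or knockout set 2 or 3 (0.0823 to 0.101). XRCC3 shares 76.7% of its exon bases with KLC1 and RAD54L 25.1% with LRRC41, both on the opposite strand. Since the strand setting of the counting is not given, the values of XRCC3 and RAD54L are uncertain. RAD54B shares 59.1% of its exon bases with FSBP on the same strand, so its values are uncertain under any strand setting.

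RBBP8 (CtIP) and EXO1 resect broken ends, and the BLM helicase with RMI1 and RMI2 dissolves joined molecules. Palbociclib lowered 4 of the 5 (median -0.55). BLM (chr15:90717327-90816165) stood at 53.8, 61.2 and 57.3 CPM on vehicle, at 38.2, 40.5 and 35.2 CPM in wild-type cells on the drug and at 44.1, 44.8 and 42.7 CPM in knockout cells. These 3 groups did not overlap, and knockout cells lay between the other groups. BLM changed by -0.60 ± 0.061 with the drug (edgeR adjusted p = 1.59e-07). It was higher in knockout cells by 0.21 ± 0.061 (edgeR adjusted p = 0.0145), a call lost without wild-type palbociclib set 3 (0.117) or knockout set 2 (0.0593).

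RMI2 (chr16:11249619-11381662), the partner of RMI1 at BLM, read 27.6, 29.4 and 30.1 CPM on vehicle, 25.6, 28.5 and 25.0 CPM in wild-type cells on palbociclib and 35.9, 40.8 and 39.1 CPM in knockout cells. Wild-type groups overlapped, and all knockout libraries were above both. Knockout cells were higher than wild-type cells on the drug by 0.55 ± 0.066 (edgeR adjusted p = 2.43e-06), the largest genotype estimate of the 36 beside that of BRCA1, and higher than vehicle by 0.41. The drug itself changed RMI2 by -0.14 ± 0.067 (edgeR adjusted p = 0.099), which was called with the set block (0.0364) and without wild-type palbociclib set 2 (0.0363). RMI1 in contrast had fallen to 68.4% of vehicle and differed by 0.12 between genotypes, not called. EXO1 fell to 66.7% and RBBP8 to 72.6% of vehicle. EXO1 differed by 0.16 ± 0.064 between genotypes (edgeR adjusted p = 0.075), called with the block (0.00975), with upper quartile scaling (0.0455) and without knockout set 3 (0.0196). RBBP8 differed by -0.01.

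The Fanconi core complex (FANCA, FANCB, FANCC, FANCE, FANCF, FANCG and the ligase FANCL) is brought to crosslinked DNA by FANCM and works with UBE2T. Of these 9 genes 8 fell with palbociclib (median -0.46). UBE2T (chr1:202331657-202341980) read 65.9, 68.3 and 74.7 CPM on vehicle, 42.0, 44.8 and 39.9 CPM in wild-type cells on the drug and 49.4, 42.9 and 39.7 CPM in knockout cells. Both drug groups were below vehicle without overlap and overlapped each other. UBE2T fell by 0.72 ± 0.073 on the log2 scale (edgeR adjusted p = 5.05e-07) and differed by 0.06 between genotypes (interval -0.10 to 0.22).

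FANCA (chr16:89737549-89816657) stood at 88.5, 85.7 and 92.9 CPM on vehicle, at 56.0, 61.4 and 59.3 CPM in wild-type cells on palbociclib and at 52.4, 55.6 and 50.5 CPM in knockout cells. The drug groups were close, with the highest knockout library just under the lowest wild-type one. FANCA changed by -0.60 ± 0.054 with the drug (edgeR adjusted p = 3.05e-08) and differed by -0.16 ± 0.054 between genotypes (edgeR adjusted p = 0.0358). The genotype call was lost without wild-type palbociclib set 2 (0.17) or 3 (0.0506) and without knockout set 1 (0.0919) or 3 (0.163). FANCA shares 23.6% of its exon bases with ZNF276 on the opposite strand.

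FANCE (chr6:35452356-35467103), which links the core complex to FANCD2, read 36.6, 34.4 and 31.2 CPM on vehicle, 25.3, 26.0 and 23.3 CPM in wild-type cells on the drug and 22.5, 22.4 and 19.2 CPM in knockout cells. Its groups stepped down without overlap. It changed by -0.46 ± 0.074 with the drug (edgeR adjusted p = 4.43e-05) and differed by -0.22 ± 0.075 between genotypes (edgeR adjusted p = 0.034). Without wild-type palbociclib set 1 (0.1) or 2 (0.139) or knockout set 3 (0.195) the genotype call was lost.

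FANCG (chr9:35073835-35080016) was the core gene that was higher in knockout cells. It stood at 111, 108 and 111 CPM on vehicle, at 76.9, 79.1 and 74.1 CPM in wild-type cells on palbociclib and at 93.3, 97.4 and 87.7 CPM in knockout cells. Knockout libraries lay between the wild-type groups and touched neither. The drug changed it by -0.52 ± 0.050 (edgeR adjusted p = 6.59e-08), and the genotypes differed by 0.27 ± 0.050 (edgeR adjusted p = 0.000312).

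FANCC fell to 69.3, FANCB to 75.6, FANCL to 78.5 and FANCM to 80.1% of vehicle, and none of these was called between genotypes. FANCB lost its drug call without wild-type palbociclib set 1 (-0.32, edgeR adjusted p = 0.0508). FANCF was at 8.86, 11.8 and 11.3 CPM on vehicle and at 11.3, 12.3 and 14.0 CPM in wild-type cells on palbociclib, overlapping groups. It changed by 0.24 ± 0.10 with the drug (edgeR adjusted p = 0.0695), which was called higher with the set block (0.014), with no low-count filter (0.0312) and without vehicle set 2 (0.0384) or wild-type palbociclib set 1 (0.0398). With the block it was also called higher in knockout cells than on vehicle (0.20, edgeR adjusted p = 0.033). FANCF has 11.3% and FANCL 18.7% of exon bases in common with GAS2 and VRK2 on the opposite strand.

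FANCI and FANCD2 form the clamp that the core complex ubiquitinates, and both fell with palbociclib. FANCD2 (chr3:10026414-10101930) read 126, 120 and 121 CPM on vehicle, 77.7, 74.3 and 66.8 CPM in wild-type cells on the drug and 107, 96.5 and 89.6 CPM in knockout cells. The 3 groups did not overlap. FANCD2 changed by -0.75 ± 0.064 with the drug (edgeR adjusted p = 2.53e-08), to 59.5% of vehicle, and was higher in knockout than wild-type cells by 0.42 ± 0.064 (edgeR adjusted p = 5.18e-05). It stood at 79.8% of vehicle in knockout cells. FANCI, at 217 ± 6.7 CPM on vehicle, fell to 156 ± 7.3 CPM and was at 171 ± 12 CPM in knockout cells. Its genotype difference of 0.13 ± 0.054 (edgeR adjusted p = 0.0795) was called with the set block (0.0144), with upper quartile scaling (0.0457) and without knockout set 3 (0.0201).

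**Figure D2:**
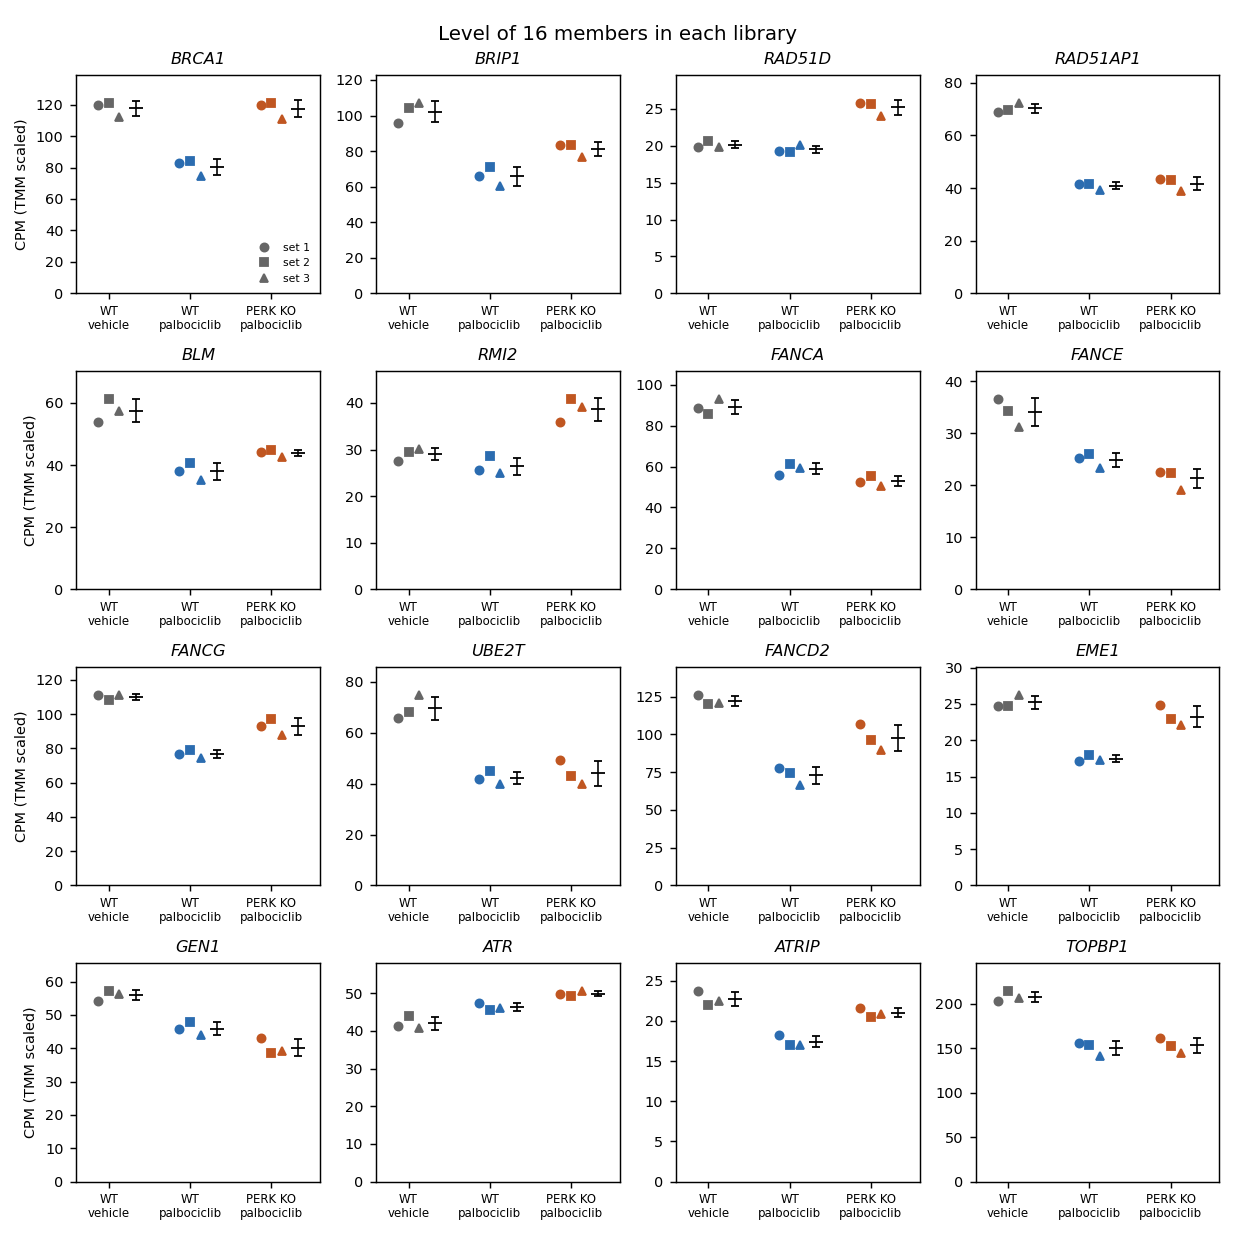
CPM (y axis, from 0, TMM scaled) of 16 genes in each of the 9 libraries (x axis, by group; circle, square and triangle are sets 1, 2 and 3), with the mean and SD of each group beside its points. In knockout cells BRCA1 and EME1 overlap the vehicle range, RAD51D and RMI2 lie above it, and RAD51AP1 and UBE2T overlap wild-type cells on the drug.

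MUS81 with EME1, GEN1, and the scaffold SLX4 belong to the step in which joined molecules are cut, and all 4 fell with palbociclib (median -0.32). EME1 (chr17:50373220-50381483) stood at 24.7, 24.7 and 26.2 CPM on vehicle, at 17.1, 18.0 and 17.3 CPM in wild-type cells on the drug and at 24.8, 22.9 and 22.1 CPM in knockout cells. Wild-type libraries on the drug were below all others, and knockout and vehicle libraries overlapped. EME1 changed by -0.53 ± 0.066 with the drug (edgeR adjusted p = 2.35e-06) and differed by 0.41 ± 0.067 between genotypes (edgeR adjusted p = 8.83e-05). MUS81, its catalytic partner, fell to 81.1% of vehicle and differed by -0.01 between genotypes (interval -0.14 to 0.12). EME1 has 16.4% of its exon bases in common with LRRC59 and MUS81 13.9% with CFL1, both on the opposite strand.

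GEN1 (chr2:17753858-17788941) read 54.2, 57.1 and 56.4 CPM on vehicle, 45.7, 47.8 and 44.0 CPM in wild-type cells on palbociclib and 43.0, 38.5 and 39.1 CPM in knockout cells. Its groups stepped down without overlap. It changed by -0.29 ± 0.055 (edgeR adjusted p = 0.000292) with the drug and differed by -0.19 ± 0.056 (edgeR adjusted p = 0.0157) between genotypes. That genotype call was lost without wild-type palbociclib set 2 (0.0915) or knockout set 2 (0.0843) or 3 (0.0694). SLX4 fell to 78.9% of vehicle and was higher in knockout cells by 0.20 ± 0.055 (edgeR adjusted p = 0.011), which did not pass without wild-type palbociclib set 3 (0.0749) or knockout set 2 (0.054). Its call below vehicle in knockout cells (-0.15, edgeR adjusted p = 0.03) did not pass with DESeq2 (0.0673), upper quartile scaling (0.0629) or no low-count filter (0.0712). It was also lost without vehicle set 1 (0.131) or knockout set 1 (0.0525) or 3 (0.134).

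ATR is the kinase that responds to stretches of single-stranded DNA, ATRIP its obligate partner, TOPBP1 its activator and CHEK1 its main target kinase. TOPBP1, CHEK1 and ATRIP fell with palbociclib and ATR rose. ATR (chr3:142449235-142578826) stood at 41.4, 44.0 and 40.7 CPM on vehicle, at 47.5, 45.5 and 46.1 CPM in wild-type cells on the drug and at 49.9, 49.2 and 50.5 CPM in knockout cells. Each group was above the one before it without overlap. The drug raised ATR by 0.14 ± 0.051 (edgeR adjusted p = 0.0308), a call lost without vehicle set 1 (0.0796) or 3 (0.115) or wild-type palbociclib set 1 (0.113) or 2 (0.051). In knockout cells it was above vehicle by 0.25 ± 0.051 (edgeR adjusted p = 0.000393). The genotype difference of 0.11 was not called. An unstranded count could add reads of a processed pseudogene on the opposite strand, which covers 16.4% of its exon bases.

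ATRIP (chr3:48446710-48467645) read 23.7, 22.0 and 22.5 CPM on vehicle, 18.2, 17.0 and 17.0 CPM in wild-type cells on palbociclib and 21.6, 20.5 and 20.9 CPM in knockout cells. Knockout libraries lay between the other groups and overlapped neither. ATRIP changed by -0.39 ± 0.065 with the drug (edgeR adjusted p = 7.36e-05) and differed by 0.27 ± 0.066 between genotypes (edgeR adjusted p = 0.00376). It shares 27.9% of its exon bases with TREX1 on the same strand. TOPBP1 (chr3:133598175-133662380) was at 203, 214 and 207 CPM on vehicle, at 156, 154 and 141 CPM in wild-type cells on the drug and at 162, 153 and 145 CPM in knockout cells. The drug groups overlapped each other and lay below vehicle. Its fall was 0.47 ± 0.052 on the log2 scale (edgeR adjusted p = 5.04e-07). CHEK1 fell to 72.5% of vehicle, and neither TOPBP1 (0.03) nor CHEK1 (0.07) was called between genotypes.

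Most genes higher in knockout cells lay in regions of the genome where other genes were higher too. For each of the 36, the median log2 fold change of the other tested genes within 5 Mb on each side was taken (26 to 251 genes). In knockout against wild-type cells this median ran from -0.24 to 0.33, and across the 36 it went with the gene's own change (Pearson r = 0.72, Spearman rho = 0.63, a description over genes that share chromosomes and libraries). It was at 0.15 or more, a level picked after the values were seen, around 8 of the 10 genes higher in knockout cells, all but FANCG and BLM, and around 5 that were not called, RAD51AP1, RBBP8, PALB2, RAD51C and ATR. EME1 (0.41) had neighbours at 0.33, BRCA1 (0.54) at 0.30, RAD51D (0.37) at 0.27 and RMI2 (0.55) at 0.26. With the neighbours' median subtracted, RMI2 was at 0.29, FANCG at 0.27, BRCA1 at 0.24 and FANCD2 at 0.19, and EME1 at 0.08 and SLX4 at -0.04. For some genes that were not called, the value after subtraction lay farther from 0: RAD51AP1 went from 0.03 to -0.24, RBBP8 from -0.01 to -0.24 and EXO1 from 0.16 to 0.23. In knockout cells against vehicle (r = 0.39, rho = 0.43), BRCA1 went from -0.01 to -0.27 and EME1 from -0.12 to -0.41. FANCA and FANCE, lower in knockout cells, had neighbours at -0.15 and -0.24, while GEN1, the other gene lower in knockout cells, had neighbours at 0.03 and was at -0.21 after subtraction.

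Chromosome 17 carried 5 of the 36 genes, of which BRCA1, BRIP1, RAD51D and EME1 were higher in knockout cells and RAD51C was not called. Of the 1084 tested genes on this chromosome 33.9% were higher and 3.69% lower. DNA copy number of the lines was not measured here, and the part of the neighbourhood in these differences was not tested. In the drug comparison the neighbours' medians ran from -0.15 to 0.15 and did not go with the genes' changes (r = -0.04), and the set's median with neighbours subtracted was -0.43.

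**Figure D3:**
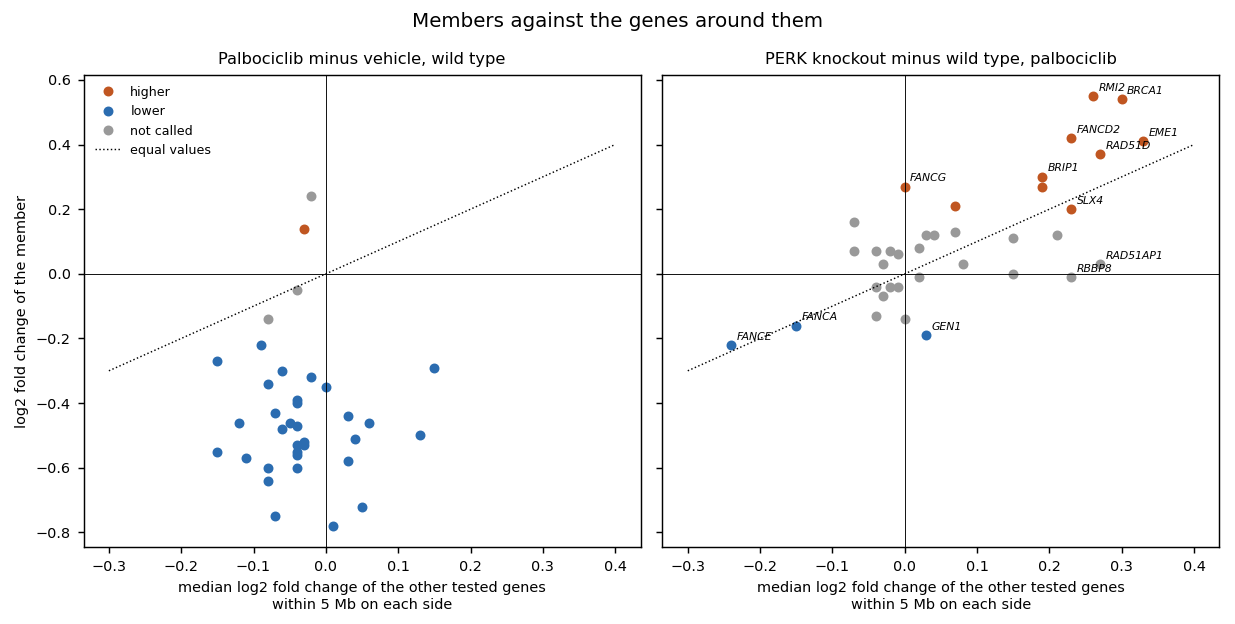
Each point is 1 of the 36 genes: its own log2 fold change (y axis) against the median log2 fold change of the other tested genes within 5 Mb on each side (x axis), for palbociclib against vehicle (left) and knockout against wild type on palbociclib (right). On the right the genes higher in knockout cells lie mostly at neighbour medians of 0.15 or more, while on the left neighbour medians stay between -0.15 and 0.15.

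A list of 55 other genes of these pathways was read the same way, of which 53 passed the filter. With palbociclib 29 fell and 4 rose (median -0.20), where 22.3% of all tested genes were called lower and 21.3% higher. The largest falls were those of DNA2 (-0.80 ± 0.064), a nuclease of long-range resection, SFR1 (-0.73 ± 0.079), a helper of strand exchange, and CLSPN (-0.73 ± 0.093), which carries the ATR signal to CHEK1. BABAM2 (0.28 ± 0.054), a subunit of a complex around BRCA1, and the helicases RECQL5 (0.28 ± 0.053) and FBH1 (0.26 ± 0.055), both known to limit recombination, rose. RAD51B, the paralog outside the 36, was like RAD51D in its calls, at 0.03 for the drug and 0.36 ± 0.080 between genotypes.

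Between genotypes 15 of these 53 were higher (28.3%) and 8 lower (15.1%), against 14.9% and 13.0% of all tested genes (median 0.02). EME2 (0.44 ± 0.088), the other partner of MUS81, CENPX (0.42 ± 0.058), a cofactor of FANCM, and RAD50 (0.38 ± 0.13), of the MRE11 complex, were the highest. RAD50 (edgeR adjusted p = 0.0292) was low, at 3.54 CPM on vehicle, 4.40 in wild-type cells on palbociclib and 5.70 in knockout cells. Its partners MRE11 and NBN were at 60.9 and 110 CPM on vehicle. FIRRM (-0.75 ± 0.080) and FIGNL1 (-0.59 ± 0.059), whose proteins form a complex that acts in recombination, were the lowest of the list, followed by the helicase subunit MCM8 (-0.48 ± 0.061). FIRRM stood at 35.3 CPM on vehicle, 27.2 in wild-type cells on palbociclib and 16.1 in knockout cells, and FIGNL1 at 35.2, 29.8 and 19.8 CPM. For this list and the repair lists below, medians of the surrounding genes were not taken. The part of the neighbourhood in their genotype differences was not tested. TOP3A, the topoisomerase of the BLM complex, was listed at 0 in every library, as was APEX1, an enzyme that every cell uses, so the listing says nothing on its expression.

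Genes of other repair pathways were read beside these. Of 15 end joining genes 10 fell and 2 rose (median -0.32), with the Ku subunits XRCC5 and XRCC6 at -0.28 and -0.35, and TP53BP1, which opposes resection, higher at 0.27 ± 0.051. The other gene that rose was APLF (0.94 ± 0.17), low at 1.99 CPM on vehicle and 3.81 CPM in wild-type cells on palbociclib. Of 20 excision repair genes tested 9 fell and 3 rose (median -0.12). Of all tested genes 22.3% were called lower and 21.3% higher. The summed level of the end joining genes was 79.6 to 81.7% of vehicle in wild-type cells on palbociclib and that of the excision repair genes 92.1 to 95.6%, against 68.5 to 74.6% for the 36. XRCC5, XRCC6 and PRKDC, at 732, 1030 and 715 CPM on vehicle, led the end joining sum of 2961 CPM. DDB1 and RAD23B, at 419 and 305 CPM, led the excision repair sum of 1346 CPM. Whether the lists differ from each other was not tested.

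Between genotypes 3 of 15 end joining genes were higher and 3 lower, and 7 of 20 excision repair genes were higher and 4 lower. The shares over all tested genes were 14.9% higher and 13.0% lower. Proliferation markers were again beside the result: 9 of 13 S phase markers were higher in knockout than in wild-type cells and 1 was lower (median 0.24), with MCM5 at 0.79 ± 0.055 and PCNA at -0.35 ± 0.061. Of 11 markers of G2 and mitosis 2 were higher, TOP2A and MKI67 (median -0.07). Summed S phase markers stood at 68.4 to 76.4% of vehicle in knockout cells against 57.6 to 64.6% in wild-type cells on the drug, without overlap, and summed G2 and mitosis markers at 61.7 to 77.9% against 59.4 to 70.0%. The latter groups overlapped, but within each of the 3 sets the knockout library was the higher one (77.9 against 70.0%, 68.2 against 67.4% and 61.7 against 59.4%). The single markers went both ways. TOP2A and MKI67 were at 925 and 537 CPM in knockout cells against 786 and 425 CPM, and CCNB1 (0.16) and PLK1 (0.04) also had estimates above 0. BUB1 (-0.25), AURKA (-0.16), CENPF (-0.14), CDC20 (-0.11), CDK1 (-0.07), AURKB (-0.07) and CCNB2 (-0.03) were below 0, none of them called. The epithelial list went the other way, at 84.0 to 87.5% of vehicle in knockout cells against 128 to 136% in wild-type cells on the drug. That sum is led by KRT8 and KRT18, and 4 of the 6 epithelial genes tested were called lower. The part of these markers in the genotype differences was not tested. The 36 stood at 74.7 to 81.6% in knockout cells against 68.5 to 74.6%. By role, the BRCA complex was at 78.7 to 86.5% against 64.1 to 73.5% and the FANCI and FANCD2 pair at 72.7 to 84.0% against 63.2 to 69.5%, while the core complex group, at 70.4 to 74.3% against 69.7 to 73.9%, overlapped between genotypes.

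**Figure D4:**
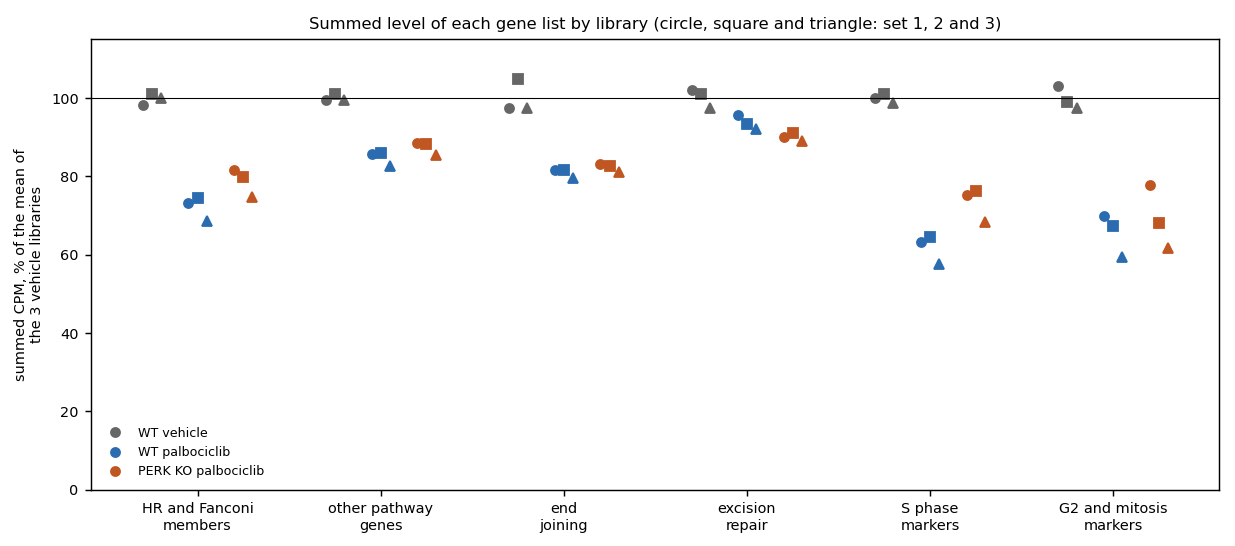
Summed CPM of each gene list (x axis) in each library as a percentage of the mean of the 3 vehicle libraries (y axis, from 0), with colours for groups and symbols for sets. The 36 genes and both lists of proliferation markers lie furthest below 100%, and in knockout cells the S phase markers lie above wild-type cells on palbociclib in every library.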

How the data were processed

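Messenger RNA was measured by RNA sequencing in 9 libraries of U2OS cells. The authors deposited raw counts of reads per gene, 1 column per library, neither normalized nor pooled. STAR 2.7.9a, DESeq2, Trim Galore, FastQC and CASAVA are named in the submitters' processing notes, with build hg38 and no order. Which program counted reads, with what strand setting and annotation, is not given in the sources used here. Poly-T beads selected the mRNA and random hexamers primed the cDNA, per the labels' protocols.

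Of 70116 IDs 62700 had a symbol and 58261 a position in GENCODE release 29 (GRCh38). Counts were tested with edgeR 4.0.16 (limma 3.58.1, R 4.3.3; tables and figures in Python 3.11.15), by a robust quasi-likelihood fit after TMM scaling (factors 0.977 to 1.01). The default filter on low counts kept 19408 genes and 99.91% of counts. A single model held the 3 groups and all 9 libraries, with 6 degrees of freedom left. A call means an adjusted p under 0.05 (Benjamini-Hochberg, over all tested genes). The biological coefficient of variation was 5.99%. The chi-square per degree of freedom between replicates was 3.45 to 10.72, so no pair was 1 library deposited again. CPM values are scaled by TMM factors, errors are SD over 3 libraries for levels and SE for log2 fold changes, and intervals are 95%.

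The labels give the same set numbers in each group. Deviations from the group means correlated within all 9 same-set pairs (r = 0.176 to 0.541 over 12932 genes above a mean log2 CPM of 1, at most 0.071 between other sets), so the numbers were taken to pair the libraries, from these correlations and not from the labels. Over all tested genes r was 0.03 to 0.223, above 0.1 in 6 of 9 pairs. The fit with the set as a block is an alternative, given where it changes a call.

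Members, lists, motifs and tests were chosen with earlier results of these data known. Values in every library are given for the called member with the largest change in each role and in each of the first 2 comparisons, and for members called against the main direction. Of the other pathway genes those with a mean of 1 CPM or more are named where they were among the 3 largest changes in a direction. RAD51B, FANCF, genes of other repair pathways and genes used as markers were named beside these after their values were seen. FIRRM was matched by an older symbol. Alternatives were DESeq2 1.42.0, library totals only, upper quartile scaling, no filter, limma-voom, only the 6 libraries compared, the set block, each library left out, and neighbours subtracted. The last of these gave fold changes and medians but no calls.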

Additional observations from a re-analysis of the deposited data

How the results depend on the processing

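Counts of genes lower with palbociclib (30 to 33), higher in knockout cells (8 to 12), and lower (26 to 29) or higher (3 to 4) in knockout cells against vehicle stayed within 1.5 times their values. This held under all alternatives that gave calls, and no calls were counted with neighbours subtracted. The count higher with palbociclib was 1, with 2 under no low-count filter, 2 with the set block, and 0 to 2 with a library left out. At 0 (edgeR, without vehicle set 1 or 3 or wild-type palbociclib set 2) 1 gene had an unadjusted p under 0.05. The count lower in knockout cells was 3, and 0 to 3 with a library left out. At 0 (edgeR), 2 genes had an unadjusted p under 0.05 without wild-type palbociclib set 2 and 1 without knockout set 3. The medians were -0.51 to -0.40 for the drug and 0.021 to 0.10 between genotypes, each range including a library left out. With the set block 2 genes were higher and 33 lower with the drug, 12 and 4 between genotypes, and 4 and 29 against vehicle. It changed the calls of RMI2, FANCF, BRCA2, EXO1, FANCI and PALB2, and no other call among the 36.

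Signs changed for values near 0 that were not called. Between genotypes these were RAD51C (-0.0076 with DESeq2, -0.027 with library totals, -0.0085 with no filter), RAD51AP1 (-0.0034) and TOPBP1 (-0.004) with library totals, and RBBP8 (0.00042) and MUS81 (0.00021) with upper quartile scaling. BRCA1 against vehicle was 0.017 with that scaling. With a library left out the genotype values ran from -0.12 to 0.029 for BARD1, -0.072 to 0.053 for RAD51C, -0.00069 to 0.13 for XRCC2, -0.016 to 0.078 for RAD51AP1, -0.10 to 0.12 for RAD54B, -0.076 to 0.05 for RBBP8 and -0.22 to 0.025 for FANCB. They ran from -0.11 to 0.027 for FANCF, -0.066 to 0.0029 for FANCL, -0.033 to 0.13 for UBE2T, -0.039 to 0.027 for MUS81 and -0.03 to 0.067 for TOPBP1, and BRCA1 against vehicle from -0.047 to 0.031. The causes were not tested. A gene that was not called is not shown to be unchanged.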
